A study of Mus musculus with 6 samples.

Results

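Apolipoprotein D and 8 further genes of lipoprotein assembly and cholesterol traffic were followed in microglia isolated after acute ischemic stroke (AIS). The group held the apolipoprotein genes Apod, Apoe and Apoc1, the cholesterol exporter genes Abca1 and Abcg1, the lipase gene Lpl, the liver X receptor genes Nr1h2 and Nr1h3, and Soat1. Apod was selected on its measured level, which was higher on the mPGC-1α arrays in this comparison, so its values are given as a description with no test. The other 8 genes were chosen for their role in the same traffic. Every probe whose accession matched 1 of the 9 symbols was taken, which gave 19 of the 56605 probes that were not controls and 9 of the 23462 genes named on the array. All 19 probes passed the filter on dim signals, which left 40745 probes and 18222 genes for testing.

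Control samples came from PGC-1α f/f mice, which carry a Cre-dependent allele of PGC-1α joined to eGFP. The mPGC-1α mice carried this allele together with Cx3cr1-Cre/ER, a tamoxifen-inducible Cre recombinase driven by a gene of microglia and other myeloid cells, and were bred to overexpress PGC-1α in microglia. Both genotypes were littermates with AIS on a C57BL/6 background, male and 10 weeks old by their labels, and tamoxifen is described for both before the stroke surgery. The interval between stroke and isolation of the array samples is not given in the sources used here. Cells bound by an antibody to the microglial receptor P2RY12 were separated on a magnet, and their RNA was hybridised to 1 single-colour array per sample, with 3 arrays for each genotype. The labels do not say that the samples of a group came from separate mice, so p-values measure only the spread between these samples.

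Cells of the brain exchange cholesterol on lipoprotein particles built around apolipoprotein E, onto which the transporters ABCA1 and ABCG1 load cholesterol and phospholipid. Liver X receptors are nuclear receptors that sense oxidised cholesterol and switch on Abca1, Abcg1, Apoe, Apoc1 and Lpl, and microglia use these genes when they clear lipid from damaged myelin. Apolipoprotein D differs from the others in structure, being a lipocalin that carries small lipids such as arachidonic acid, and in the brain it is known mainly from oligodendrocytes, astrocytes and perivascular cells.

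Each level is a log2 intensity set against the 75th percentile of its own array, and differences are mPGC-1α minus control on that log2 scale, with the standard error (SE) of the limma fit. The overexpressed gene was read first. On the brighter probe of Ppargc1a, which encodes PGC-1α, control arrays 1, 2 and 3 gave levels of -1.05, -0.55 and -0.53, and the mPGC-1α arrays gave -1.08, -0.86 and -1.12 in the same order. The difference was -0.31 (SE 0.24, limma adjusted p = 0.798), and on a second probe it was -0.41 (adjusted p = 0.769). Neither probe showed the overexpression, so mPGC-1α stands here for what an array was labelled, not for a measured rise in PGC-1α. Outside these arrays, the study reported higher PGC-1α in mPGC-1α microglia by immunostaining and by qRT-PCR of primary microglia. Cx3cr1 is the gene at which Cre was inserted. Its tested probe read 4.19, 3.66 and 4.11 on the controls and 2.79, 2.36 and 3.13 on the mPGC-1α arrays. The difference was -1.23 (SE 0.24, limma adjusted p = 0.684) without overlap, as in 4.66% of all probes with 6 values on the lower side. A second Cx3cr1 probe, marked on 3 arrays and not tested, overlapped between the groups with its marked spots kept (-0.33). The cause of this difference was not tested.

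The share of spots well above background ran from 71.0% to 86.5% over the 6 arrays, with 0 saturated spots. Both arrays numbered 3 were on a second slide and carried 3010 and 4931 spots marked as outliers against 549 to 1094 on the others. Control array 2 stood apart from the other controls on many probes: without it, 2102 of 39288 probes passed the limma adjustment (140 higher and 1962 lower), against 0 of 40745 with all 6 arrays. Leaving out any other single array gave 0 calls, so p-values without control array 2 are conditional on that choice. Member probes below are therefore given with and without that array where their call or direction changes. The genes of the wider lists are read with all 6 arrays, and their calls without it are counted. Directions within those lists also changed in part: the 6 choroid plexus markers, all lower with all arrays, were then 1 higher and 5 lower. Microglial genes were bright on all 6 arrays. P2ry12 and Tmem119, markers of resident microglia, were marked as outliers on 3 arrays each and could not be tested, but with the marked spots kept they ranged from 3.94 to 4.40 and from 5.15 to 5.52, with differences of 0.00 and 0.11.

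Apod was higher on all 3 mPGC-1α arrays. Its brightest probe (A_51_P366811) read 2.25, 2.73 and 1.90 on the controls in the order of their numbers, with a mean of 2.29 ± 0.42 (SD, n = 3). The mPGC-1α arrays in that order read 4.35, 3.78 and 3.73, with a mean of 3.95 ± 0.34 (SD, n = 3). The groups did not overlap, and the control nearest to the mPGC-1α arrays was array 2. The difference of 1.66 (SE 0.26) corresponds to 3.16-fold, and it was 1.58 among the arrays of slide 1 and 1.83 between those of slide 2.

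A second Apod probe (A_55_P2093286), read from 10 spots per array, gave the same picture. Its levels were 1.88, 2.58 and 1.75 on the control arrays and 3.93, 3.37 and 3.63 on the mPGC-1α arrays. Here too the groups did not overlap, control array 2 was the highest control and mPGC-1α array 1 was the highest of all. The difference was 1.57 (SE 0.26), or 2.97-fold. Of the 40745 probes tested, 50 had a larger difference upward than the brightest Apod probe, as had 25 of the 18222 genes when each was read by its brightest probe. Without control array 2 the differences on both probes were 1.88 and 1.82.

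**Figure D1:**
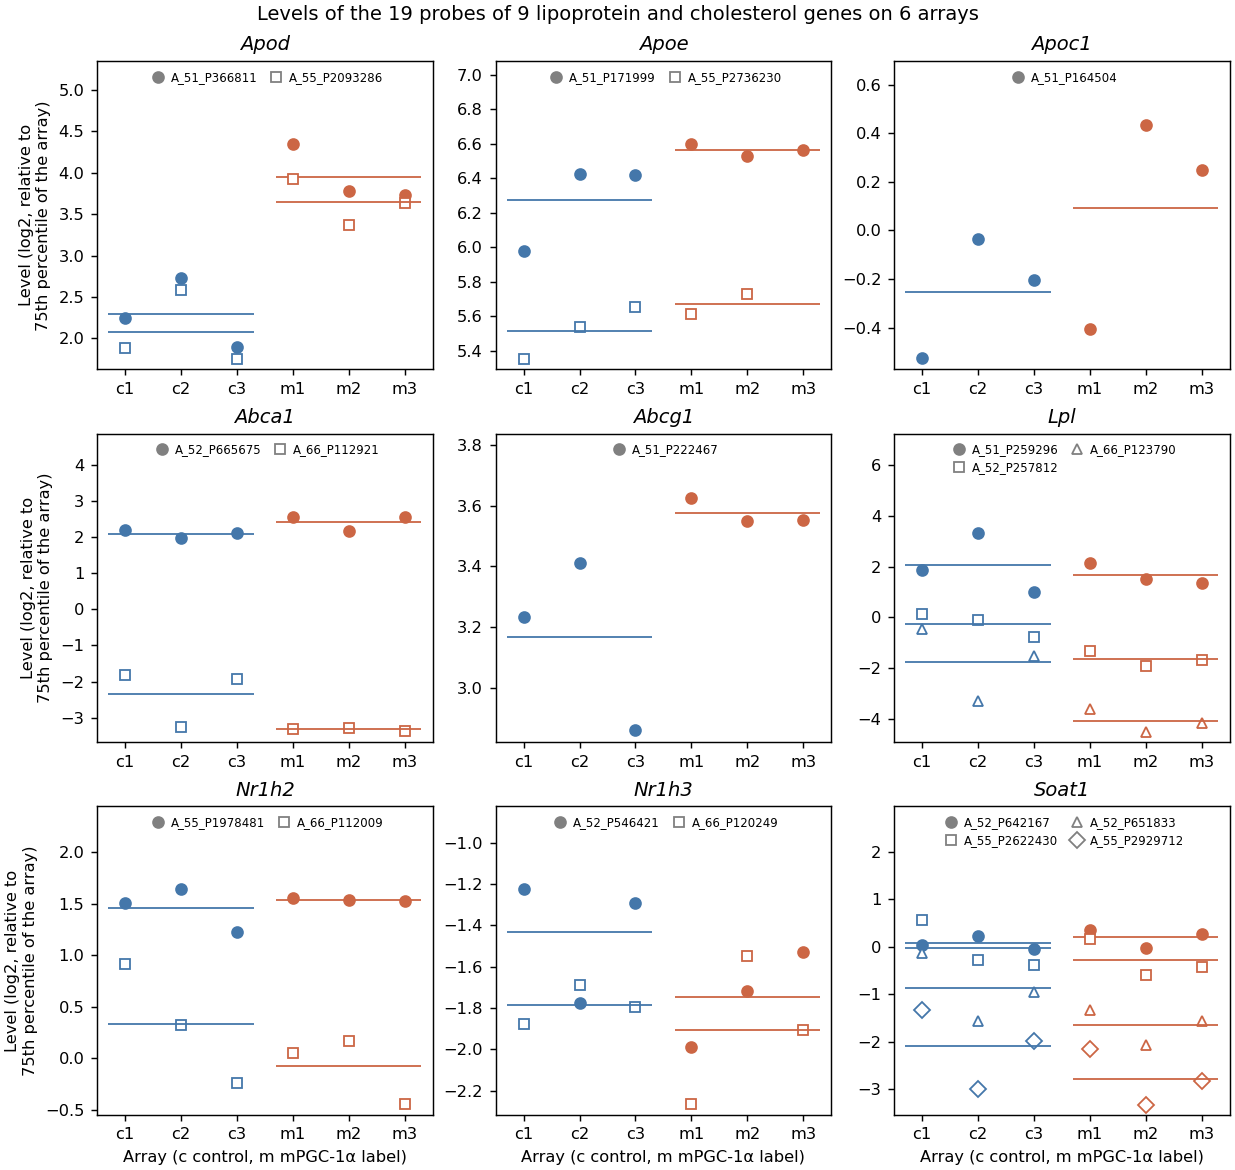
Level of each of the 19 probes on the 6 arrays (log2 relative to the 75th percentile of the array; c, control; m, mPGC-1α label), with filled symbols for the brightest probe of a gene, open symbols for its other probes and lines at the group means of 3 arrays (2 for the Apoe probe A_55_P2736230 in the mPGC-1α group). Both Apod probes sit higher on every mPGC-1α array than on any control, whereas the probes of Abca1 and Soat1 go different ways within a gene.

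Markers of other cell types moved with Apod, and their part in its difference was not tested. In these bulk samples, fewer cells of a type and less RNA per cell cannot be told apart. Of 15 oligodendrocyte markers, 14 were higher on average on the mPGC-1α arrays, with a median difference of 0.93, against 64% of all genes and a median of 0.11. Ermn, of the myelin cytoskeleton, had a difference of 0.49 and Mbp, myelin basic protein, of 0.16. Other Mbp probes ran from -0.44 to 0.27. The summed linear level of the 13 markers measured on every array, in multiples of the 75th percentile, ran from 10.2 (array 3) to 19.4 (array 2) on the controls. The mPGC-1α arrays 1, 2 and 3 gave sums of 37.8, 21.8 and 23.7, above every control.

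The 6 arrays fell in nearly the same order by Apod and by these myelin genes. From the highest, Apod ordered them as mPGC-1α 1, 2 and 3, then control 2, 1 and 3, and the summed oligodendrocyte markers differed only in placing mPGC-1α array 3 before array 2. Apod was selected for being higher on the mPGC-1α arrays, and the summed markers were above every control there. The split between the groups was thus given beforehand, and only the order within each group of 3 arrays was free. This order is a description with no test. Astrocyte markers were also higher, 10 of 11 with a median of 0.67, led in level by Aldoc (1.06), Slc7a10 (-0.50) and S100b (1.60). Summed astrocyte levels overlapped, with controls at 13.8 to 22.1 and mPGC-1α arrays 1, 2 and 3 at 20.9, 61.2 and 24.6. One array, mPGC-1α array 2, thus made the upper end. It also stood far above its group for S100b (4.16, next highest 1.58) and Aldoc (4.74, next highest 3.24). Other astrocyte markers were more even within that group, such as Gjb6 (0.96, 1.31, 0.93) and Fgfr3 (0.73, 0.85, 0.71). Neuronal markers were higher in 13 of 14 cases with a median of 0.86, and their brightest genes Snap25, Eno2 and Stmn2 had differences of 0.30, 0.44 and 0.99. A second Snap25 probe went the other way (-1.28). The summed level of the neuronal markers was 45.2 to 72.2 on the control arrays and 70.5 to 84.6 on the mPGC-1α arrays, so these groups overlapped as well.

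Lists for cells of vessels, meninges and blood had medians near or below that of all genes. Fibroblast markers, led by Col1a1 (0.25), Dcn (0.43) and Igf2 (-0.45), had a median difference of 0.06 with overlapping sums (22.8 to 34.8 and 28.1 to 35.7). Endothelial and mural markers had a median of 0.16, and their brightest genes Acta2, Vtn and Pecam1 differed by 0.09, 0.06 and -1.22. The 6 choroid plexus markers tested, among them Folr1 (-0.29), Otx2 (-0.17) and Kcnj13 (-1.01), were all lower, with a median of -0.63. Monocyte and macrophage markers were lower in 11 of 12 cases with a median of -0.21, and Ly6c2, Plac8 and F13a1 differed by -0.07, -0.05 and -0.26. Microglial markers were split, 7 higher and 6 lower with a median of 0.13, and C1qb and Csf1r, among their brightest genes, differed by 0.31 and 0.19. A second Csf1r probe differed by -0.32. No gene of any marker list passed the limma adjustment with all 6 arrays. Without control array 2, 4 oligodendrocyte markers and 1 neuronal marker passed, all higher, against 0.443% of all genes called higher, and 2 microglial, 2 endothelial or mural and 1 monocyte or macrophage marker passed, all lower, against 2.92% of all genes called lower.

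**Figure D2:**
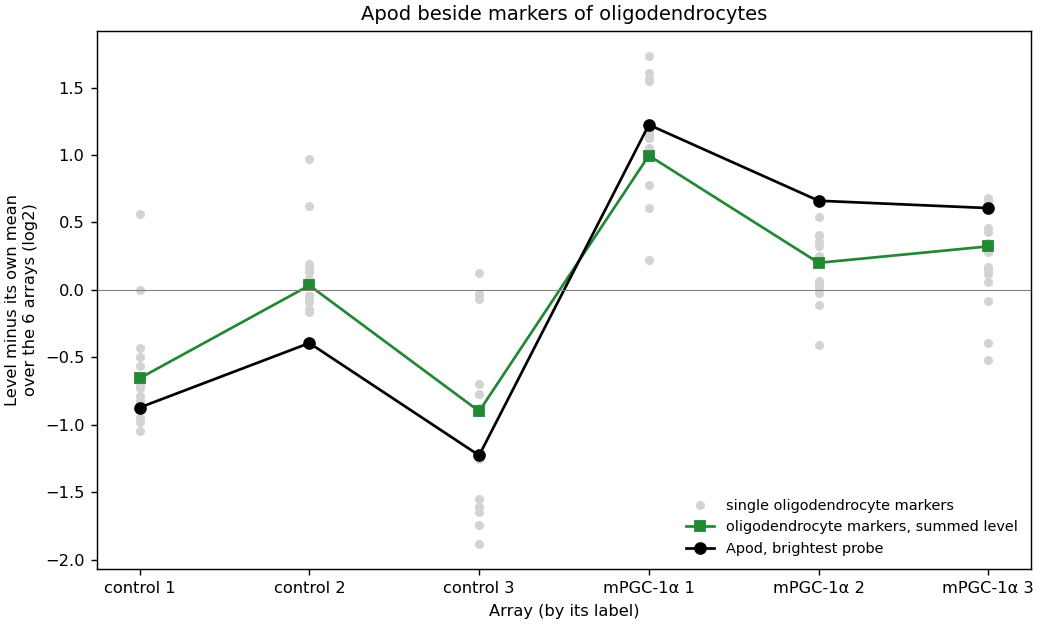
Level of the brightest Apod probe (black), log2 of the summed level of 13 oligodendrocyte markers (green) and single markers (grey) on each array, each minus its own mean over the 6 arrays (log2). Apod and the summed markers are both highest on mPGC-1α array 1 and lowest on control array 3, and control array 2 is the highest control for both.

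The genes whose pattern over the 6 arrays was most like that of Apod were Itgad, Nkain2, Ddc, Phactr3 and Cpne6. Likeness was measured as the root mean square difference between centred levels, which was 0.217 to 0.227 for these 5 genes against a median of 0.845 over the 16999 genes compared. Their differences ran from 1.39 (Phactr3) to 1.74 (Ddc, aromatic amino acid decarboxylase). Most of these probes were dim. Itgad read -4.51, -3.80 and -4.65 on the control arrays, and Phactr3, the brightest of them, -1.27, -0.81 and -1.26. The lowest level well above background on control array 3 was -5.23. Itgad encodes an integrin subunit of leukocytes, and Cpne6 a calcium-binding protein of neurons. Likeness over 6 arrays of which the groups form a part is a description only.

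The promoter of Apod is shown because Apod is the member that was selected on its level, with that of Abca1, the classical liver X receptor target of the group, for comparison. RefSeq windows (GRCm38.p6) were at hand for 6 of the 9 genes, Apod, Apoe, Abca1, Nr1h2, Nr1h3 and Soat1. Both sequences are the 250 bases before the annotated start, 5′ to 3′ on the strand of the gene, with letters of a searched motif in capitals. Apod lies on the minus strand at chr16:31314809-31315058 and Abca1 on the minus strand at chr4:53159896-53160145.
Apod: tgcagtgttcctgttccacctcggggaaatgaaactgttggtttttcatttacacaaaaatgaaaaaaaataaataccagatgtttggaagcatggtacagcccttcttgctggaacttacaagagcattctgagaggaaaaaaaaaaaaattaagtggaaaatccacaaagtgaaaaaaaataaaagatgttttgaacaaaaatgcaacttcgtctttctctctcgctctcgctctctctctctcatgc
Abca1: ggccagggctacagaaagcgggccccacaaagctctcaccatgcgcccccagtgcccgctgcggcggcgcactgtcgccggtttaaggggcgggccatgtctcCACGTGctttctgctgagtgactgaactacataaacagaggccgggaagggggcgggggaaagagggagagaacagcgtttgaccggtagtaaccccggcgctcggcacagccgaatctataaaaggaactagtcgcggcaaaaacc
Both strands were searched for 4 motifs: the nuclear receptor half-site AGGTCA, the direct repeat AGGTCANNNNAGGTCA read by liver X receptors, the element TCAAGGTCA of the oestrogen-related receptors that PGC-1α coactivates, and the E-box CACGTG. The direct repeat and the oestrogen-related receptor element contain the half-site, so these searches overlap. Only exact matches were counted, so a site that differs from these letters at any base was missed. Of all 32851 windows of this length, 14.0% held the half-site, 0.0152% the direct repeat, 0.387% the oestrogen-related receptor element and 6.02% the E-box. In the 9 windows of the 6 genes the only exact match was 1 E-box in Abca1, whose first base lies 147 bases before the start, as marked above. The lack of an exact match does not show that a window, that of Abca1 included, holds no receptor site. Apod had 0 exact matches, and 36.4% of its window was G or C, against 61.6% for Abca1 and a median of 52.4% over all windows.

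None of the other 17 probes passed the adjustment over all 40745 probes, with adjusted p-values from 0.684 to 0.942. Limma called 0% of all probes at that threshold, and with the replicate number as a block 0.00247% of probes and 0.00552% of genes, none of them a member. At an unadjusted p below 0.05 fell 3 of the 17, all lower, against 4.52% of all probes lower, 2.65% higher and 7.17% in either direction. By direction 7 of the 17 were higher and 10 lower, with a median of -0.25, against 60.1% higher and a median of 0.08 over all probes. The brightest probe of each gene was higher in 6 of 8 cases with a median of 0.21, against 0.11 over all genes. Of the 16 probes with all 6 values, 2 were higher and 3 lower without overlap between the groups, against 6.8% and 4.66% of all probes. An exact two-sided permutation test of 3 against 3 arrays cannot give less than p = 0.1, and these 5 probes reached that value.

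**Figure D3:**
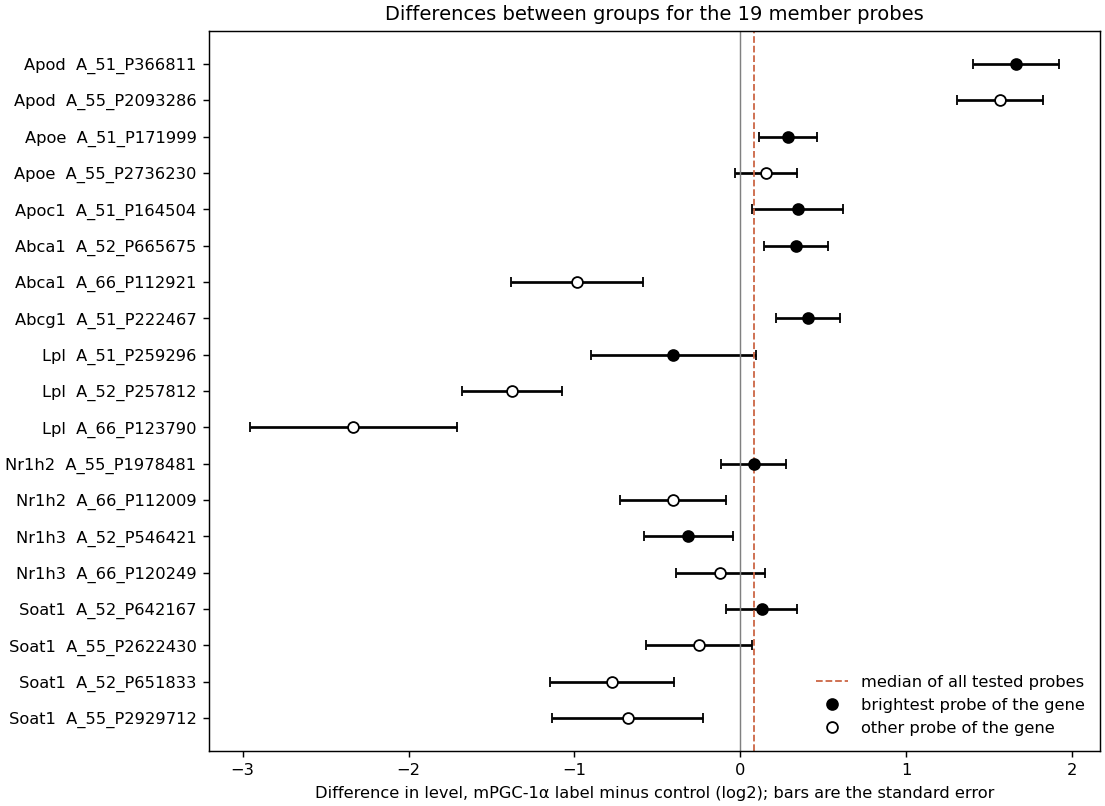
Difference in level of each probe, mPGC-1α label minus control (log2), with the standard error of the limma fit over 3 arrays per group (2 mPGC-1α arrays for the Apoe probe A_55_P2736230); filled points are the brightest probe of a gene and the dashed line is the median of all tested probes (0.08). Apod lies at 1.66 and 1.57, and the lowest points are the 2 dimmer Lpl probes at -1.38 and -2.33.

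Apoe, the main apolipoprotein of the brain, was only slightly higher. Its brightest probe (A_51_P171999) read 5.98, 6.43 and 6.42 on the control arrays and 6.60, 6.53 and 6.56 on the mPGC-1α arrays. Control array 1 was the low sample, and the other 2 controls came close to the mPGC-1α arrays without overlapping them. The difference was 0.29 (SE 0.17, 1.22-fold, limma adjusted p = 0.753), and 0.14 without control array 1. Under quantile normalization it was -0.01, so the direction depended on how the arrays were scaled. The second Apoe probe (A_55_P2736230) read 5.36, 5.54 and 5.66 on the control arrays and 5.62 and 5.73 on the first 2 mPGC-1α arrays. Its spot on mPGC-1α array 3 was marked as an outlier and left out (5.66 if kept), and the values overlapped, with a difference of 0.16 (SE 0.19, adjusted p = 0.875).

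Apoc1, a small apolipoprotein whose gene neighbours Apoe in the RefSeq table, varied more between arrays than between groups. Its level on its single probe was -0.52, -0.03 and -0.21 on the control arrays and -0.41, 0.43 and 0.25 on the mPGC-1α arrays. Array 1 was the lowest of both groups, and the groups overlapped. The difference of 0.35 (SE 0.27) had a limma adjusted p = 0.799. It was 0.60 without mPGC-1α array 1, 0.18 without mPGC-1α array 2 and 0.21 without control array 1.

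Abcg1, which passes cholesterol to lipoproteins that already carry lipid, was higher on every mPGC-1α array. Its probe read 3.23, 3.41 and 2.86 on the control arrays and 3.63, 3.55 and 3.55 on the mPGC-1α arrays. The mPGC-1α arrays lay close together, whereas the controls spread more widely, with array 3 lowest. The difference was 0.41 (SE 0.19, 1.33-fold, limma adjusted p = 0.708), with 0.27 for the arrays of slide 1, 0.69 for those of slide 2 and 0.25 without control array 3.

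Abca1, which starts the particle by loading lipid onto free apolipoprotein E, was read by 2 probes that moved in opposite directions. The brighter (A_52_P665675) read 2.19, 1.99 and 2.11 on the control arrays and 2.57, 2.17 and 2.57 on the mPGC-1α arrays. The groups overlapped because mPGC-1α array 2 fell below control array 1, and the difference was 0.34 (SE 0.19, limma adjusted p = 0.748). The dimmer probe (A_66_P112921) read -1.83, -3.28 and -1.92 on the control arrays and -3.31, -3.28 and -3.38 on the mPGC-1α arrays. Control array 2 lay beside the mPGC-1α arrays, and the other controls lay far above them. The groups did not overlap only by the small step from -3.276 on control array 2 to -3.283 on mPGC-1α array 2. The difference was -0.98 (SE 0.40, adjusted p = 0.686), and without control array 2 it was -1.45 (SE 0.22, adjusted p = 0.00934).

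Lpl, whose lipase releases fatty acids from lipoprotein triglyceride, was lower on average on each of its 3 probes, but by very different amounts. The brightest (A_51_P259296) read 1.88, 3.32 and 1.01 on the control arrays and 2.13, 1.53 and 1.35 on the mPGC-1α arrays. Control array 2 was the highest of all and the groups overlapped. The difference of -0.40 (SE 0.50, limma adjusted p = 0.877) turned to 0.22 without control array 2, and it was -0.78 for slide 1 and 0.34 for slide 2.

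The middle Lpl probe (A_52_P257812) read 0.13, -0.12 and -0.79 on the control arrays and -1.32, -1.90 and -1.69 on the mPGC-1α arrays. All 3 controls lay above all mPGC-1α arrays. The difference was -1.38 (SE 0.30, 2.60-fold lower), with a limma adjusted p = 0.684. Blocking on replicate number gave an adjusted p = 0.124, and when the percentile was also taken over unmarked spots, an alternative chosen after seeing the data, it was 0.00330 (difference -1.30). The dimmest probe (A_66_P123790) read -0.47, -3.30 and -1.51 on the control arrays and -3.59, -4.52 and -4.17 on the mPGC-1α arrays. The groups again did not overlap, but here control array 2 was the lowest control, the reverse of its place on the brightest probe. The difference was -2.33 (SE 0.62, 5.04-fold lower, adjusted p = 0.684), and without control array 2 it was -3.10 (SE 0.40, adjusted p = 0.00409). The block with the unmarked percentile gave -2.26 and an adjusted p = 6.05e-06 here. That alternative called 1265 of all 40564 probes lower and 450 higher.

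No probe of the liver X receptor genes passed the adjustment, and the groups overlapped on all 4. Nr1h2, which encodes the widely expressed form, read 1.51, 1.64 and 1.23 on the control arrays and 1.55, 1.54 and 1.52 on the mPGC-1α arrays on its brighter probe. These values overlapped, with a difference of 0.08 (SE 0.19, 95% confidence interval -0.36 to 0.52, limma adjusted p = 0.942). Its second probe read 0.92, 0.33 and -0.24 on the control arrays and 0.05, 0.17 and -0.44 on the mPGC-1α arrays, which put the difference at -0.41 (SE 0.32, 95% confidence interval -1.12 to 0.31, adjusted p = 0.797). Array 3 was the lowest of both groups on that probe, and single arrays moved its difference to -0.12 (control array 1 left out), -0.70 (control array 3) and -0.22 (mPGC-1α array 3).

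Nr1h3, the form prominent in macrophages and liver, was slightly lower on both of its probes. The brighter read -1.23, -1.78 and -1.29 on the control arrays and -1.99, -1.72 and -1.53 on the mPGC-1α arrays. Control array 2 lay among the mPGC-1α arrays. The difference was -0.31 (SE 0.27, 95% confidence interval -0.91 to 0.29, limma adjusted p = 0.811). It moved to -0.19 without mPGC-1α array 1 and to -0.49 without control array 2. On the second probe the levels were -1.88, -1.69 and -1.79 against -2.26, -1.55 and -1.91, with mPGC-1α arrays both above and below all controls. Its difference was -0.12 (SE 0.27, adjusted p = 0.940).

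Soat1, which esterifies cholesterol for storage in lipid droplets, was read by 4 probes. The brightest read 0.04, 0.23 and -0.04 on the control arrays and 0.35, -0.02 and 0.28 on the mPGC-1α arrays, so the groups overlapped, with a difference of 0.13 (SE 0.21, limma adjusted p = 0.911). The other 3 probes were lower on average, by -0.25, -0.78 and -0.68 from the brightest to the dimmest, and none passed the adjustment (adjusted p = 0.884, 0.713 and 0.771). Without control array 1 these differences were 0.05, -0.40 and -0.30, and without control array 2 they were -0.37, -1.11 and -1.12. On the probe with the largest of these (A_52_P651833) the levels were -0.13, -1.55 and -0.94 on the control arrays and -1.33, -2.06 and -1.57 on the mPGC-1α arrays. Control array 2 lay among the mPGC-1α arrays once more, and control array 1 lay far above them.

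The probes of a gene thus moved apart between the arrays in several members, and the change of the difference between a dimmer probe and the brightest one was followed by array. For Abca1 this difference, minus its mean over the 6 arrays, was 1.08, -0.17 and 1.07 on the control arrays and -0.77, -0.35 and -0.86 on the mPGC-1α arrays. For the dimmest Lpl probe it was 2.45, -1.82 and 2.27 on the control arrays and -0.92, -1.25 and -0.72 on the mPGC-1α arrays. In both genes control arrays 1 and 3 stood above the rest, and control array 2 was on the side of the mPGC-1α arrays. Soat1 behaved alike on 2 of its probes, with 1.23, -0.38 and 0.50 on the control arrays for A_52_P651833 and 1.20, -0.63 and 0.64 for A_55_P2929712.

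This divergence was not limited to the lipid genes. Over 6305 pairs of a dimmer and the brightest probe from all genes, the median of the centred difference was 0.25, -0.09 and 0.11 on the control arrays and -0.08, -0.13 and -0.16 on the mPGC-1α arrays. The dimmer probe fell further behind on the mPGC-1α arrays in 68.1% of all pairs and in 8 of the 9 member pairs with all 6 values. Control array 2 had the lowest difference of the 3 controls in 53.8% of all pairs and in 6 of these 9. For Apod the change between the groups was -0.09, the smallest of the 9. The part of this divergence in the differences of single members was not tested.

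**Figure D4:**
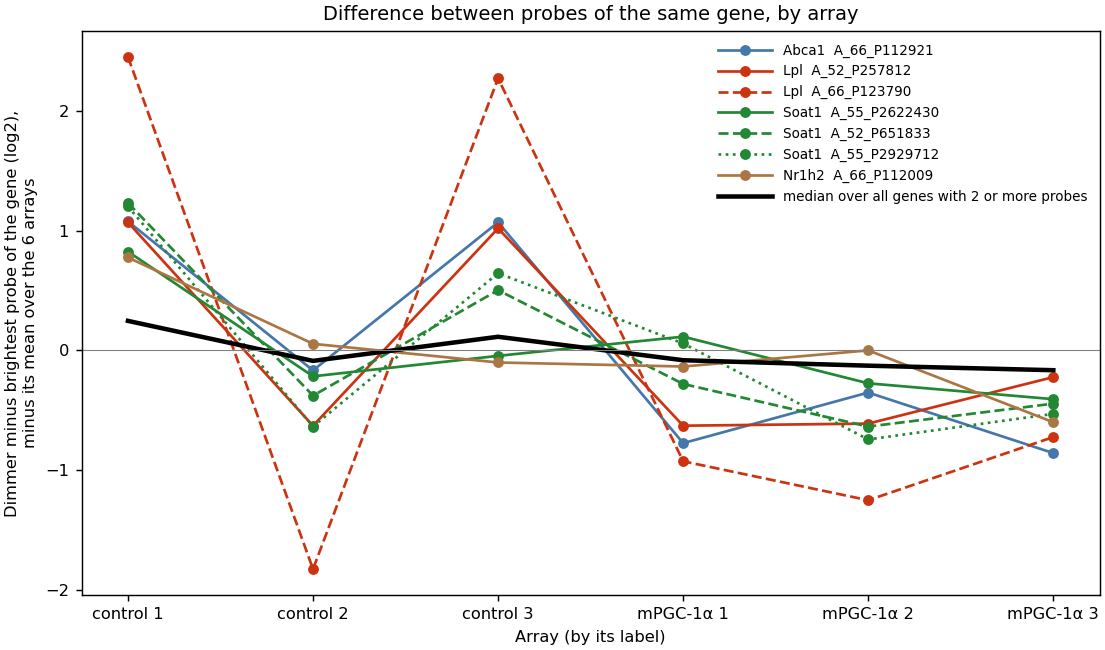
Level of a dimmer probe minus that of the brightest probe of the same gene (log2), minus the mean of this difference over the 6 arrays, for the probes of Abca1, Lpl, Nr1h2 and Soat1, and the median over 6305 pairs from all genes (black). Control arrays 1 and 3 stand highest for Abca1 and Lpl, and control array 2 falls with the mPGC-1α arrays, the lowest point being -1.82 for the Lpl probe A_66_P123790.

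The wider pathway was read through 102 further genes in 7 lists, each gene by its brightest probe. Of the 93 that could be tested, 0 passed the limma adjustment, as for all genes (0% of 18222), and 5 higher and 2 lower had an unadjusted p below 0.05 (3.41% and 2.68% of all genes). On average 57 were higher and 36 lower, with a median of 0.10 against 0.11 over all genes. Of 76 genes with all 6 values, 9 were higher and 2 lower without overlap (8.48% and 3.45% of all genes). The adjusted p-values of the genes named for these lists in the next paragraphs ran from 0.684 to 0.870.

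Among other targets of liver X receptors, 8 of 13 were higher and 5 lower, with a median of 0.12. Scd2, a fatty acid desaturase prominent in myelinating cells, read 1.29, 1.13 and 1.78 on the control arrays and 1.94 and 2.86 on the first 2 mPGC-1α arrays, its spot on array 3 being marked. Its difference was 1.00 (SE 0.33), that of the fatty acid synthase gene Fasn 0.56 and that of Mylip, which marks lipoprotein receptors for degradation, 0.37. Partners of nuclear receptors were higher in 8 of 9 cases with a median of 0.19. Among them were Rxrg (0.69), a retinoid X receptor, and Esrra (0.39), which encodes the oestrogen-related receptor ERRα.

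Cholesterol synthesis was the list with the lowest median, -0.09 over 22 genes, of which 9 were higher and 13 lower. Ebp, a late enzyme of the pathway, differed by 0.41 and Fdft1, squalene synthase, by -0.40, both without overlap.

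In storage, traffic and oxidation of sterols, 11 of the 20 genes lay higher and 9 lower around a median of 0.08. Cyp27a1, a mitochondrial enzyme that hydroxylates the side chain of cholesterol, read 0.83, -3.77 and 0.80 on the control arrays and -3.01, -3.30 and -2.88 on the mPGC-1α arrays. Control array 2 sat below the mPGC-1α arrays. The difference was -2.35 (SE 1.03). Gramd1a, a carrier of cholesterol from the plasma membrane, differed by 0.60 without overlap, and Lipa, the lysosomal acid lipase, by -0.48. A second Gramd1a probe went the other way (-0.42).

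The remaining lists stayed close to all genes. Lipoprotein receptors, lipases and remodelling enzymes were higher in 13 of 17 cases with a median of 0.11, with Lcat, which esterifies cholesterol in particles, at 0.69 and the scavenger receptor gene Msr1 at -0.84. Other apolipoproteins were higher in 6 of 8 cases with a median of 0.08, led by Apoc2 (0.56), Apom (0.39) and Apoa2 (-0.25). Further transporters were split, 4 higher and 4 lower with a median of 0.05, and Abca3, Abca2 and Scarb1 differed by 0.42, 0.29 and -0.36. A second Scarb1 probe differed by 0.12.

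**Figure D5:**
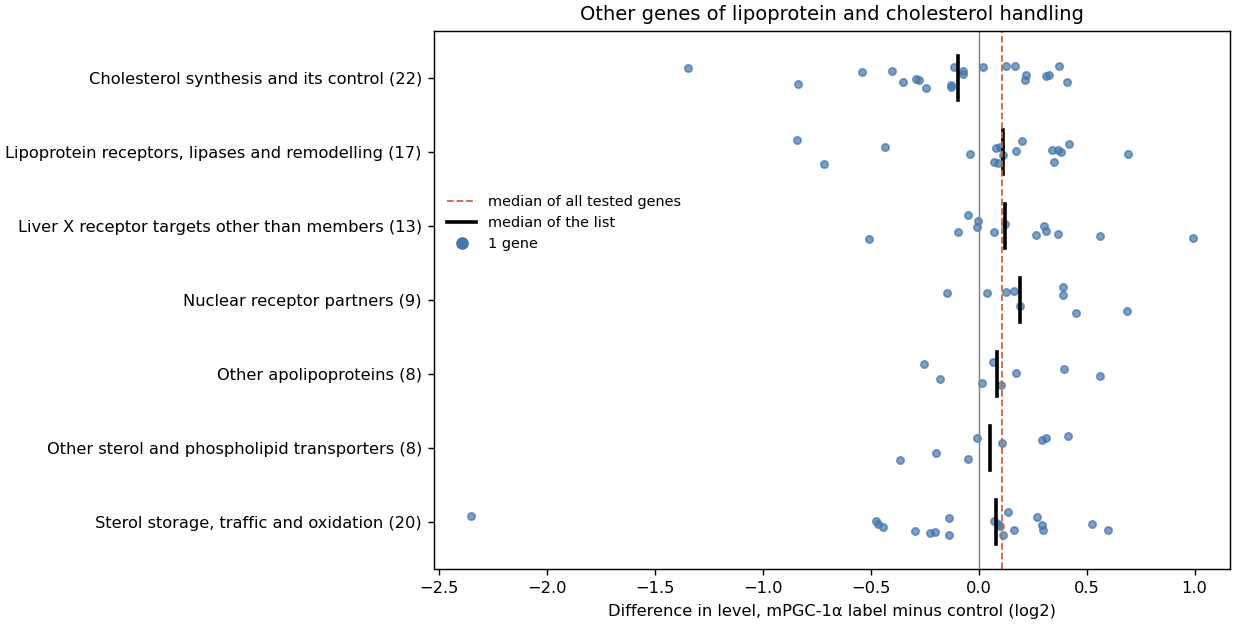
Difference in level of each tested gene of 7 lists, mPGC-1α label minus control (log2), read by its brightest probe; black bars are list medians, the dashed line is the median of all tested genes (0.11) and numbers in brackets count the tested genes. List medians run from -0.09 for cholesterol synthesis to 0.19 for nuclear receptor partners, and the lowest point, at -2.35, is Cyp27a1.

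Without control array 2, calls among the members and the wider pathway appeared on the lower side only, as did 1962 of the 2102 calls over all probes. In that fit 2 of the 17 member probes other than those of Apod passed, the dimmer Abca1 probe and the dimmest Lpl probe, against 4.99% of all probes called lower. Of the 90 pathway genes tested in that fit 4 passed, all lower, among them Cyp27a1 (-3.88) and Msr1 (-1.24). One of the 4, Osbp, an oxysterol-binding protein named after its value was seen, changed its probe as well: its brightest probe (0.14 with all 6 arrays, adjusted p = 0.926) could not be tested without control array 2, and the dimmer probe then read gave -2.97, against -2.38 (adjusted p = 0.684) with all arrays. The share of all genes called lower in that fit was 2.92%, as given above. With all 6 arrays none of these 6 probes passed.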

How the data were processed

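Microglia had been selected for P2RY12, and their amplified RNA was hybridised to Agilent mouse arrays, 1 per sample. The deposited scanner files give intensity per spot on a linear scale, made with Feature Extraction 11.5.1.1, background-subtracted and not normalized between arrays. A series matrix from the authors gives log2 values after normalization in GeneSpring 13.

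The processed signal was taken to log2 and centred on the 75th percentile of its array over non-control probes, each counted once and outlier-marked spots included in the percentile, because 91.6% to 96.0% of marked spots lay above it. Marked spots were then left out and spots of a probe averaged. A probe was tested if every unmarked spot of 1 group was well above background, with at least 2 values per group. Groups came from the genotype labels. Probes were named through RefSeq accessions of GRCm38.p6, which matched 33767 of 56605 probes (59.7%).

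Groups were compared with limma 3.58.1 in R 4.3.3 (eBayes with an intensity trend, two-sided, Benjamini-Hochberg over all tested probes, threshold 0.05), and the procedure was tested on simulated data. Named genes were all member probes, the 3 genes with the smallest unadjusted p of each pathway list, the 3 with the highest level of each marker list, and the 5 most like Apod. Some genes that this rule names are not reported here. The members, lists and tests were chosen with earlier results of these data known. The number of arrays limits precision. Arrays with the same replicate number deviated together (r = 0.247, 0.224 and 0.171, others -0.337 to 0.0346), although no label says what these numbers stand for. The main fit held no block, so its standard errors and p-values are unpaired, and a fit with the replicate number as a block was run as an alternative. Alternatives covered scaling, filters, marked spots, blocks and single arrays.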

Additional observations from a re-analysis of the deposited data

How the results depend on the processing

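With the replicate number as a block, 0 member probes and 0 pathway genes passed, and 1 of 40564 probes passed in all; no call of a named gene changed. Leaving out each array in turn gave 0 to 2102 probes passing in all, 0 to 2 member probes and 0 to 4 pathway genes, and each of the highest counts came without control array 2. An alternative chosen after seeing the data took the 75th percentile over unmarked spots. With the replicate block it gave 1715 of 40564 probes (450 higher, 1265 lower) and 3 of 93 pathway genes (1 higher, 2 lower). It also gave 2 of 17 member probes, both lower: the Lpl probes A_52_P257812 (-1.30, limma adjusted p = 0.00330) and A_66_P123790 (-2.26, limma adjusted p = 6.05e-06). Without the block that percentile gave no member call.

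Both Apod probes kept their direction in all 17 alternatives, between 1.46 and 1.88 and between 1.41 and 1.82. Over the 19 member probes 9 of 320 comparisons turned the direction. The brightest Apoe probe was -0.013 under quantile normalization, -0.017 under normexp with quantile normalization and -0.013 in the series matrix, and the second was -0.098 under quantile normalization and -0.060 in the series matrix. Single arrays turned 4 probes: Lpl A_51_P259296 ran from -0.93 to 0.22, Nr1h2 A_55_P1978481 from -0.036 to 0.17, Nr1h3 A_66_P120249 from -0.30 to 0.060 and Soat1 A_55_P2622430 from -0.47 to 0.054. The cause of these changes was not tested. The number of arrays, 3 per group, limits the precision of every value.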
